A study of Mus musculus with 2 samples.

Results

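Collagen chains are the polypeptides that wind around each other into the collagen triple helix, and every gene of the count table whose symbol is Col, a number, the letter a and a second number was taken as one. The rule used the symbol alone and found 44 of 49492 genes: 11 fibrillar, 6 basement membrane, 9 FACIT, 4 transmembrane, 6 beaded filament, 3 short-chain network and 2 multiplexin chains, the single anchoring fibril chain Col7a1, and 2 chains placed under other, Col26a1 and Col28a1. The RNA came from colonies/organoids that mammary basal cells, sorted as lin-CD24+CD29hi cells from glands of adult WT female mice, formed in a 3D matrix gel with EGF and ITS in the medium, and it was measured by RNA-seq. The library Basal_ctrl received no further treatment and the library Basal_Tnfa was cultured with recombinant mouse TNF-α, an inflammatory cytokine, at 10 ng/mL. The series' design text gives 10 days of culture, and the number of mice pooled per library was not given in the sources used here. There was 1 library per condition, so no difference below has a replicate check, no p-value is given, and whether a difference exceeds the spread between cultures could not be measured.

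Each collagen molecule is assembled from several chains, which may come from one gene or from partner genes, and a chain without its partners is usually kept inside the cell and degraded. Fibrillar collagens build the tensile fibrils of connective tissue, and FACITs, the fibril-associated collagens with interrupted triple helices, sit on the surface of those fibrils. Type IV collagen forms the network of the basement membrane, the thin sheet under the mammary basal (myoepithelial) cells, whereas the transmembrane chain Col17a1 belongs to the hemidesmosome that clips keratin filaments to that sheet and Col7a1 forms the anchoring fibrils below it. In mammary gland stroma, fibroblasts are the main known source of types I and III collagen.

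The libraries held 44462275 counts (control) and 53487087 counts (TNF-α), and chains are compared with each other only by their level, the counts per 1000000 counts of the library (CPM) divided by the kilobases of summed exon length (RPKM). Among markers of mammary basal epithelium, the keratin genes Krt14 (229766 counts in control, 259922 with TNF-α) and Krt5 (109438 and 146872) were abundant in both libraries. All 11 luminal epithelial markers were counted too and summed to 4467 CPM in control and 3556 with TNF-α, so markers of both epithelial layers were present in both libraries. The 11 fibroblast markers summed to 103 and 136 CPM and the 6 pericyte markers to 197 and 149. The 6 endothelial markers summed to 7.35 and 6.99, and the 8 leukocyte markers to 8.25 and 6.52. The T cell gene Cd3e was at 0 in both libraries, and the endothelial gene Emcn and the macrophage gene Adgre1 were at 0 in control. Other endothelial markers were counted in both libraries, such as Pecam1 (117 and 114 counts) and Cdh5 (112 and 157). So were other leukocyte markers, such as Lyz2 (114 and 109) and Csf1r (92 and 81). Most of the pericyte sum was Notch3, with 7241 of 8751 counts in control and 6364 of 7954 with TNF-α. In bulk RNA, fewer cells of a type and less RNA per cell cannot be told apart.

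Promoter windows from RefSeq (build GRCm38.p6, 250 bases before to 50 after each transcript start) matched 35 of the 44 chains, in 38 windows. The 6 windows below belong to chains on which the partner comparison turns and were chosen with their ratios known: a pair that kept its ratio (Col4a1 and Col4a2) and 2 pairs that did not (Col6a1 with Col6a3, Col9a1 with Col9a2). They are printed 5′ to 3′ on the gene's own strand, and capitals mark a match on either strand to GGGCGG (the Sp1 motif) or TGANTCA (the AP-1 motif).
Col4a1, chr8:11312777-11313076, minus strand: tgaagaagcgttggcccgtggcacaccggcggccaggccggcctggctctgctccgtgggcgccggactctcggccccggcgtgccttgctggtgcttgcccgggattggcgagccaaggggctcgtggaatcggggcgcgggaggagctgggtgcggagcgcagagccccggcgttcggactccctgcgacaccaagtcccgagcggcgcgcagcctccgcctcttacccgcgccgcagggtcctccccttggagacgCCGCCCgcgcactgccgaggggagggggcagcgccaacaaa
Col4a2, chr8:11312555-11312854, plus strand: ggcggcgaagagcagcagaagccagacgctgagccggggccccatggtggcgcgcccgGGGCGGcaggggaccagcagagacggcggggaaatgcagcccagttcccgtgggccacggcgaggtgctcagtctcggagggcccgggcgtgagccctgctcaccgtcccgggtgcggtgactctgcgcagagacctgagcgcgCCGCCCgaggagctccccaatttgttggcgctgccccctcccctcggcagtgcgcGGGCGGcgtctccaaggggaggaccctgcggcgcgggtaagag
Col6a1, chr10:76725995-76726294, minus strand: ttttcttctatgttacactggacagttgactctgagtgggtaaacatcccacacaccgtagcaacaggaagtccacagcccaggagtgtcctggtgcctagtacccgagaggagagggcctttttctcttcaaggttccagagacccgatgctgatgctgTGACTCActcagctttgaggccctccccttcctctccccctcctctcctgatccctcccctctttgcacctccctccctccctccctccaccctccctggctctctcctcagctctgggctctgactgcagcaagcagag
Col6a3, chr1:90843922-90844221, minus strand: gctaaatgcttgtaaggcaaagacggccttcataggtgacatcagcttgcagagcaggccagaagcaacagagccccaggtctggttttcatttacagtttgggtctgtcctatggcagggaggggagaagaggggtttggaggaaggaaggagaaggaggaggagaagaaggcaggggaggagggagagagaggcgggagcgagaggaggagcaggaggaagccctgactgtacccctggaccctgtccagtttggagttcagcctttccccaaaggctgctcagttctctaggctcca
Col9a1, the upstream of its 2 windows, chr1:24177360-24177659, plus strand: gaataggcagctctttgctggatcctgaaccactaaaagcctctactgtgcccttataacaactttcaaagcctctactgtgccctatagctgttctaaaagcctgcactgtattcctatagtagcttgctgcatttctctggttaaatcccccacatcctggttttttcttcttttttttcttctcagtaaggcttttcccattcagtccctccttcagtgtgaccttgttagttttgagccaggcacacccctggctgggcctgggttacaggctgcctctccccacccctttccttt
Col9a2, chr4:121039316-121039615, plus strand: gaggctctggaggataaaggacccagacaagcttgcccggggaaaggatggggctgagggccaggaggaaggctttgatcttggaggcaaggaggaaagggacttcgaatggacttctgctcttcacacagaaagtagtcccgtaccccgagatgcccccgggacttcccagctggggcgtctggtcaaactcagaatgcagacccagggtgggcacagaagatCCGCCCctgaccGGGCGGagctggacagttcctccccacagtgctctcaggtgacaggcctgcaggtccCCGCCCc

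The Col4a1 and Col4a2 windows overlap and run in opposite directions, since the gene starts lie 21 bases apart head to head. The Sp1 motif was present in 23 of the 38 collagen windows (60.5%) and in 35.7% of all 32851 promoter windows, and the collagen windows had a median GC content of 59.8% against 52.7%. The AP-1 motif was present in 1 collagen window, that of Col6a1, and in 7.81% of all windows. An NF-κB-like motif (GGG, any 2 bases, then TTTCC, on either strand) was found in Col17a1 alone among the collagen windows and in 1.63% of all windows, and TATAAA was found in 5 collagen windows (13.2%: Col3a1, Col10a1, Col11a2, Col13a1 and Col17a1) and 13.6% of all. None of the 4 motifs was matched in the Col6a3 window or in the upstream Col9a1 window. These are matches of letters in a short window, no match overlapped another in the windows shown, and no factor binding was measured.

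Collagen transcripts made up 13706 CPM of the control library and 10851 CPM of the TNF-α library. Their summed level was 2092 RPKM in control and 1685 RPKM with TNF-α, a ratio of 0.805. A few chains held most of it: the 5 highest chains took 55.3% of the summed level in control and 58.8% with TNF-α. In control the order was Col9a2 (382 RPKM), Col9a3 (238), Col17a1 (220), Col7a1 (174) and Col6a1 (142). With TNF-α it was Col9a3 (238), Col17a1 (233), Col6a1 (230), Col9a2 (150) and Col7a1 (139). Thus Col9a2, a chain of the FACIT type IX, went from the 1st to the 4th place. The stromal chains Col1a1, Col1a2 and Col3a1 ranked 19, 20 and 22 of 44 in control, at 17.3, 16.7 and 12.9 RPKM. With the length of the transcript with the longest coding sequence in place of summed exon length, they ranked 22, 17 and 20. In the order of levels, 15 of 43 neighbouring pairs in control and 19 of 43 with TNF-α had counting intervals that overlapped and so were not ordered at this depth. Most of these pairs were chains under 2 RPKM, but with TNF-α Col17a1 and Col6a1, at the 2nd and 3rd place, were one of them.

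**Figure D1:**
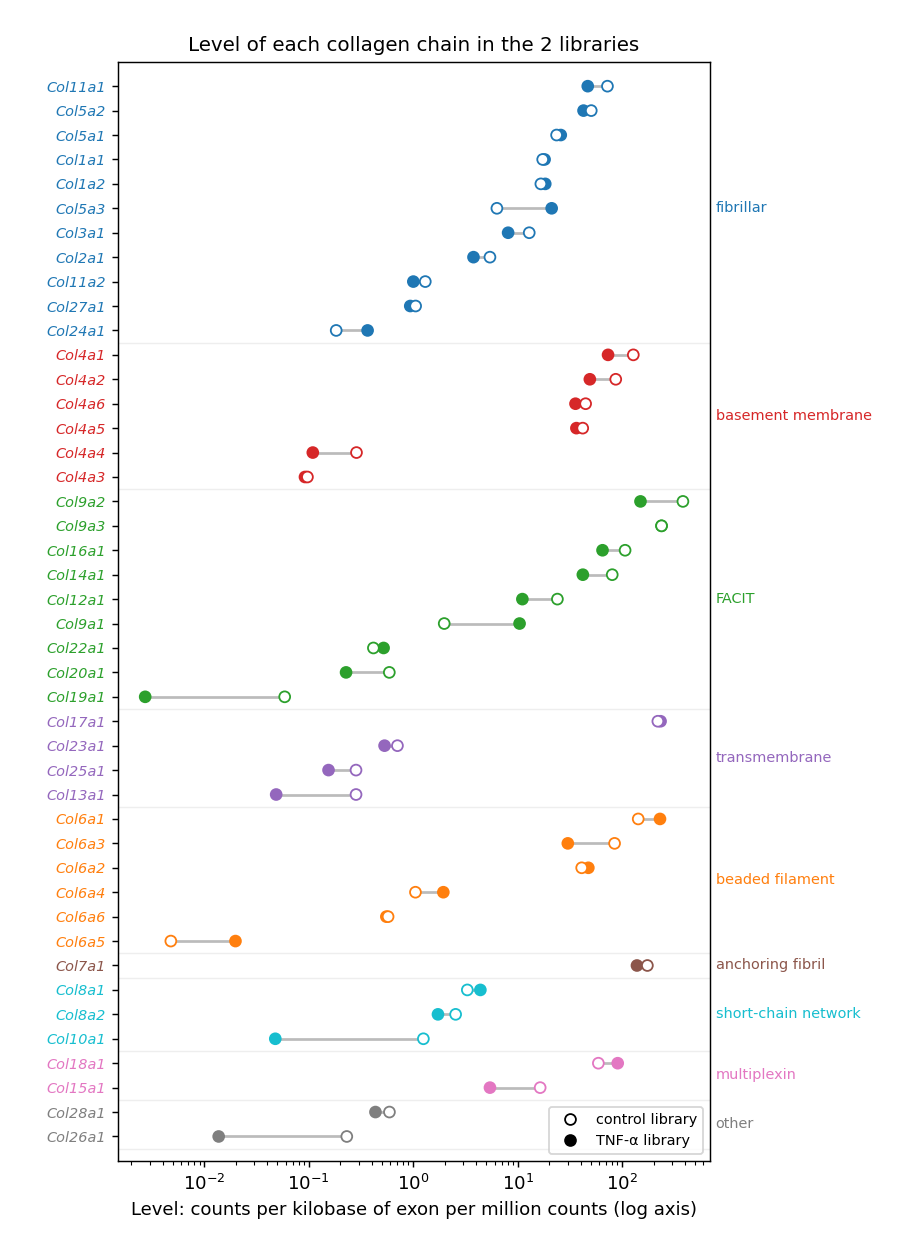
Level of each of the 44 collagen chains in RPKM (log axis), grouped by class, with open circles for the control library and filled circles for the TNF-α library. Levels ran from 0.00478 (Col6a5) to 382 (Col9a2) in control and from 0.00271 (Col19a1) to 238 (Col9a3) with TNF-α.

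All 44 chains had at least 10 counts over both libraries and were compared by the log2 ratio of CPM, TNF-α over control, where past 2-fold means beyond 1 or -1. With TNF-α, 3 chains were past 2-fold higher (Col9a1, Col5a3 and Col6a5) and 10 were past 2-fold lower. Over all 20771 genes compared, 8.56% were past 2-fold higher and 6.62% past 2-fold lower. The chains lay on the lower side: 15 were above 0 and 29 below, with a median log2 ratio of -0.35, whereas the median of all genes was 0.0038. Low counts carry some of these folds, so the 28 chains with at least 1000 summed counts were also taken alone. Of these, 2 were past 2-fold higher (Col9a1 and Col5a3) and 4 lower (Col9a2, Col6a3, Col12a1 and Col15a1), with a median of -0.22. Their signs were more even than those of all 44, with 12 above 0 and 16 below. Among the 9345 genes counted that often, 2.65% were past 2-fold higher and 2.02% lower.

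**Figure D2:**
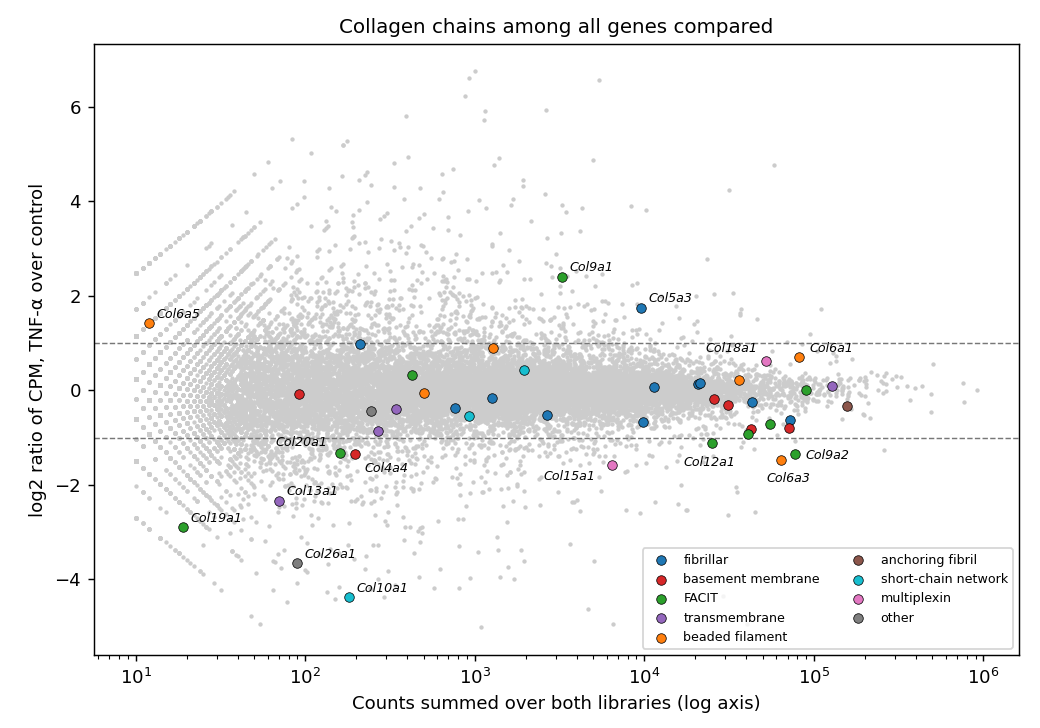
Log2 ratio of CPM (TNF-α over control) against the counts summed over both libraries (log axis) for 20771 genes in gray, with the 44 collagen chains coloured by class and dashed lines at 2-fold. Col9a1 and Col5a3 stand above the upper line and Col9a2, Col6a3, Col12a1 and Col15a1 below the lower line at over 1000 counts, where the gray cloud is narrow.

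The 4 main classes differed in how many members passed 2-fold. FACITs had 1 of 9 higher and 4 lower (median -0.93), basement membrane chains 0 higher and 1 of 6 lower (median -0.56, all 6 below 0), transmembrane chains 0 higher and 1 of 4 lower (median -0.63), and fibrillar chains 1 of 11 higher and 0 lower (median -0.16). Of all genes compared, 8.56% were past 2-fold higher and 6.62% lower. The basement membrane call, Col4a4 (197 summed counts), and the transmembrane call, Col13a1 (70), rest on few reads. So do the FACIT calls on Col20a1 (161) and Col19a1 (19). By level, the FACITs summed to 834 RPKM in control and 517 with TNF-α, the basement membrane chains to 302 and 195, and the fibrillar chains to 208 and 187. The transmembrane chains summed to 221 and 234 RPKM, nearly all of it Col17a1, so their median and their summed level pointed in opposite directions. As shares of the collagen level, the FACITs were 39.9% in control and 30.7% with TNF-α, and the beaded filament chains 12.9% and 18.4%. Without division by length, the beaded filament share of collagen counts was 14.5% and 16.5%. Their summed counts were lower with TNF-α, at 1992 CPM in control and 1786 with TNF-α. The classes are small and hold 1 library per condition, and their differences from each other were not tested.

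**Figure D3:**
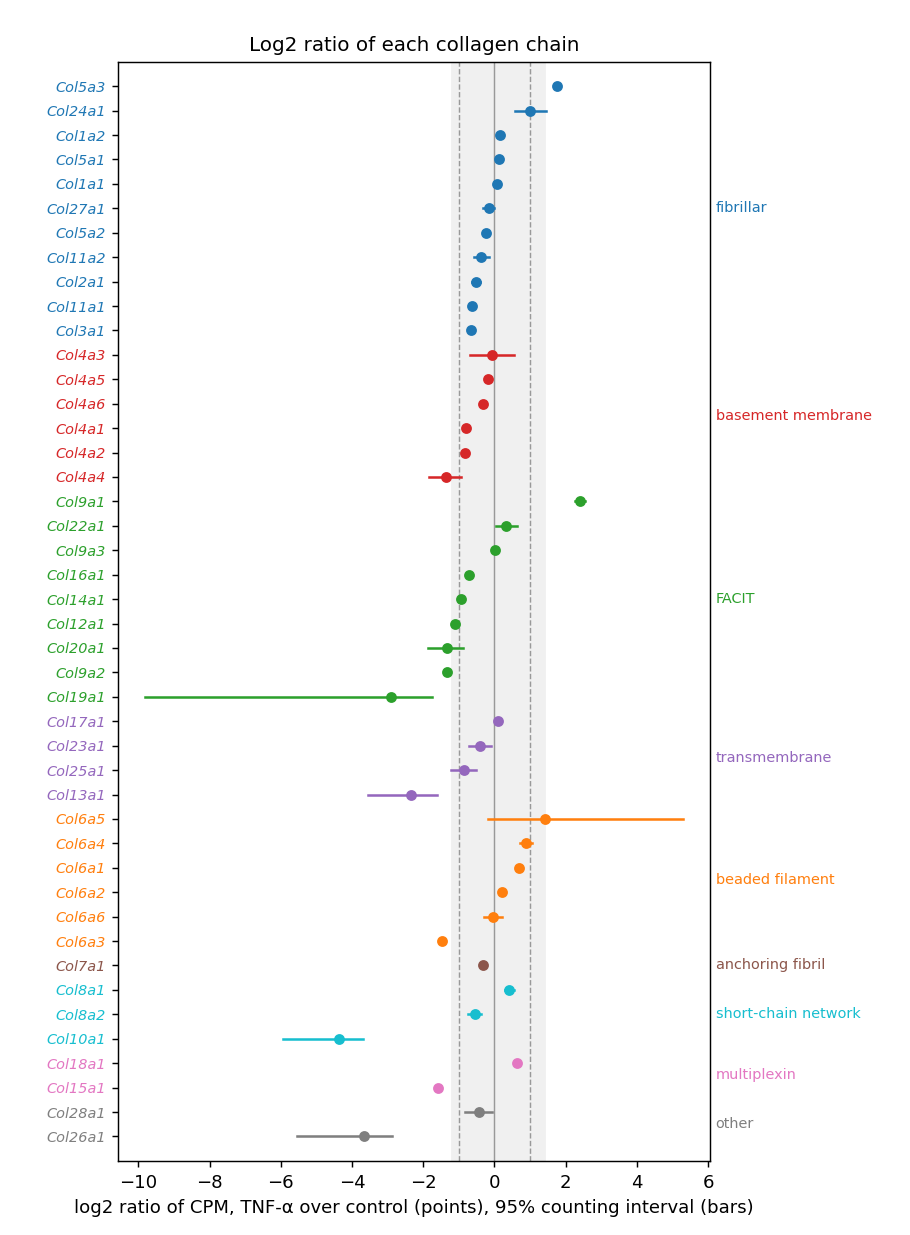
Log2 ratio of CPM, TNF-α over control, for each collagen chain by class, with bars for the 95% counting interval, dashed lines at 2-fold and a gray band from the 5th to the 95th percentile of all genes (-1.20 to 1.42). Col9a1 and Col5a3 lie above the band, and the basement membrane chains all lie below 0.

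Among the FACITs, the 3 chains of type IX collagen, known best from cartilage, differed in direction. Col9a1 (chromosome 1, 24177610 to 24252684, GRCm38) had 446 counts in control and 2824 with TNF-α, or 1.98 and 10.4 RPKM. Its log2 ratio was 2.40 (95% counting interval 2.26 to 2.55), a 5.27-fold higher value and the highest of all 44 chains. Col9a2 (chromosome 4, 121039385 to 121055322) went the other way, with 52514 counts in control and 24792 with TNF-α. It was 2.54-fold lower, at a log2 ratio of -1.34 (-1.36 to -1.32), and lost more summed level than any other chain. Col9a3 (chromosome 2, 180597790 to 180622189) stood at 238 RPKM in both libraries, from 40805 and 49098 counts, with a log2 ratio of 0.01 (-0.01 to 0.03). Reads from Tcfl5, on the opposite strand, could be counted with Col9a3 over 6.07% of its exon bases, but Tcfl5 had just 80 and 191 counts.

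Of the other FACITs compared, all but Col22a1 were below 0. Col12a1, which links fibrils in tissues under tension, had 16243 counts in control and 9028 with TNF-α and was 2.15-fold lower (log2 ratio -1.11, interval -1.14 to -1.07). Its relative Col14a1 had 25049 and 15767 counts, 80.3 and 42.0 RPKM, a log2 ratio of -0.93 that stayed inside 2-fold. Col16a1, a FACIT found near basement membranes and in skin, had 32012 and 23415 counts and a log2 ratio of -0.71. All of these were well counted, and for each the counting interval excluded 0. Col20a1 (110 and 51 counts, log2 ratio -1.33) and Col19a1 (18 counts and 1 count, log2 ratio -2.90 with an interval of -9.81 to -1.77) were past 2-fold lower from few reads. Col22a1, a chain of tissue junctions such as that of muscle and tendon, had 170 and 256 counts and a log2 ratio of 0.33. Col21a1, the remaining FACIT of the class as listed, was not among the genes of the count table.

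Basement membrane collagen was lower on both of its common chains. Col4a1 (chromosome 8, 11198423 to 11312826) had 42432 counts in control and 29246 with TNF-α, 128 and 73.3 RPKM, with a log2 ratio of -0.80 (-0.82 to -0.78). Col4a2 (chromosome 8, 11312805 to 11449287), its obligate partner, had 25551 and 17367 counts, 86.8 and 49.1 RPKM, with a log2 ratio of -0.82 (-0.84 to -0.79). Both stayed inside 2-fold, at 1.74-fold and 1.76-fold lower. The chains of epithelial basement membranes with a more restricted distribution, Col4a5 (12522 and 13105 counts, log2 ratio -0.19) and Col4a6 (15840 and 15246 counts, log2 ratio -0.31), were nearer to 0. Col4a3 and Col4a4, the chains best known from the kidney glomerulus, were barely counted, with 43 and 49 counts for Col4a3 (log2 ratio -0.07, interval -0.69 to 0.55) and 135 and 62 for Col4a4 (log2 ratio -1.35, interval -1.84 to -0.94). Col4a3 shares 5.65% of its exon bases with C430014B12Rik on the opposite strand, which had 215 and 308 counts, so reads of the pair may be mixed.

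Other chains of the basement membrane zone differed among themselves. Col7a1, the anchoring fibril chain, had the most counts of any collagen in both libraries, 79734 in control and 76261 with TNF-α, with a log2 ratio of -0.32 (-0.34 to -0.31). The multiplexins, which carry heparan or chondroitin sulfate and release anti-angiogenic fragments, split in direction. Col18a1 had 18476 and 34047 counts, 59.2 and 90.7 RPKM, and a log2 ratio of 0.62 (0.60 to 0.65), inside 2-fold. Col15a1 had 4632 and 1842 counts, 16.4 and 5.42 RPKM, and was 3.01-fold lower (log2 ratio -1.59, interval -1.67 to -1.51). The multiplexin sum therefore was 75.6 RPKM in control and 96.1 with TNF-α, while their median log2 ratio was -0.48.

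The transmembrane class rested on 1 abundant chain. Col17a1, the hemidesmosomal collagen also called BP180, had 56307 counts in control and 71901 with TNF-α, 220 and 233 RPKM, a log2 ratio of 0.09 (0.08 to 0.11). The other chains of the class were below 1 RPKM in both libraries. Col13a1, found at cell adhesions and the neuromuscular junction, had 58 and 12 counts and was past 2-fold lower (log2 ratio -2.34, interval -3.57 to -1.62). Col25a1 (163 and 107 counts, log2 ratio -0.85) and Col23a1 (180 and 163 counts, log2 ratio -0.40) were inside 2-fold.

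Fibrillar chains had the median nearest to 0 of the 4 main classes (-0.16), although by summed level the transmembrane class differed less between the libraries, and 1 of the 11 passed 2-fold. Col5a3 (chromosome 9, 20770050 to 20815067), the minor chain of type V collagen, had 1914 counts in control and 7699 with TNF-α, 6.32 and 21.1 RPKM. It was 3.36-fold higher, with a log2 ratio of 1.75 (1.68 to 1.82). Its partners were near 0, with Col5a1 at 8896 and 11732 counts (log2 ratio 0.14) and Col5a2 at 21571 and 21891 counts (log2 ratio -0.24). Type I collagen, the main fibril former, was little displaced: Col1a1 had 5062 and 6351 counts (log2 ratio 0.07, interval 0.01 to 0.12) and Col1a2 had 9207 and 12199 (log2 ratio 0.15). Col3a1, which forms fibrils with type I in soft tissue, had 5628 and 4250 counts and a log2 ratio of -0.66 (-0.72 to -0.61).

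The cartilage-type fibrillar chains were also present. Col11a1, which nucleates fibrils, was the highest fibrillar chain in both libraries, at 72.3 RPKM in control and 46.8 with TNF-α (40962 and 31928 counts, log2 ratio -0.62). Col2a1, the main fibril chain of cartilage, had 1447 and 1211 counts (log2 ratio -0.52) and Col11a2 had 396 and 366 (log2 ratio -0.37). None of the 3 passed 2-fold. Col24a1 had 62 and 149 counts, just inside 2-fold at a log2 ratio of 0.98 (0.57 to 1.46) and past it, at 1.03, with a correction for gene length, and Col27a1 had 610 and 652 (log2 ratio -0.16).

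Type VI collagen, which forms beaded filaments between basement membrane and fibrils, differed between the libraries in the balance of its chains. Col6a1 (chromosome 10, 76708792 to 76726168) had 27751 counts in control and 53944 with TNF-α, 142 and 230 RPKM, with a log2 ratio of 0.70 (0.68 to 0.72). Col6a2 had 15170 and 21133 counts and a log2 ratio of 0.22. Col6a3 (chromosome 1, 90765923 to 90843971), the long chain that joins these in the common molecule, had 44994 and 19311 counts, 84.6 and 30.2 RPKM, and was 2.79-fold lower (log2 ratio -1.48, interval -1.50 to -1.46). The alternative long chains, which can take the place of Col6a3 in the molecule, were all low in level. Col6a4 had 398 and 885 counts (log2 ratio 0.89, interval 0.72 to 1.07) and Col6a6 had 234 and 271 (log2 ratio -0.05). Col6a5 passed 2-fold on 2 and 10 counts, with a log2 ratio of 1.41 and an interval of -0.17 to 5.29 that includes 0.

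Of the short-chain network and unplaced chains, those with the largest folds were rarely counted. Col10a1, the marker of hypertrophic cartilage, had 174 counts in control and 8 with TNF-α, a log2 ratio of -4.37 (-5.94 to -3.69), the lowest of all chains. Col26a1 had 84 and 6 counts and a log2 ratio of -3.65 (-5.55 to -2.88). Their highest levels were 1.25 RPKM (Col10a1) and 0.231 RPKM (Col26a1), both in control. Col8a1 and Col8a2, chains of the hexagonal lattice known from vessels and cornea, had 748 and 1200 counts (log2 ratio 0.42) and 508 and 414 counts (log2 ratio -0.55). Col28a1 had 129 and 114 counts and a log2 ratio of -0.43.

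Ratios of level between chains of one molecule were compared for 10 listed pairs, and in 4 of them the log2 ratios of the partners differed by more than 1. The list does not hold every pair: by their own log2 ratios Col5a3 (1.75) also stood apart from Col5a1 (0.14) and Col5a2 (-0.24), Col9a2 (-1.34) from Col9a3 (0.01), and Col6a3 (-1.48) from Col6a2 (0.22). Col4a1 over Col4a2 was 1.47 in control and 1.49 with TNF-α, so the pair moved together, with a difference between their log2 ratios of 0.02 (-0.02 to 0.06). Col1a1 over Col1a2 was 1.04 and 0.986, and Col4a5 over Col4a6 was 0.938 and 1.02. By contrast, Col6a1 over Col6a3 went from 1.68 to 7.63, a difference of 2.18 (2.15 to 2.21), while Col6a1 over Col6a2 went from 3.48 to 4.85. Col9a1 over Col9a2 went from 0.00519 to 0.0696, a difference of 3.74 (3.59 to 3.89), and Col9a1 over Col9a3 from 0.00831 to 0.0437. Even with TNF-α, Col9a1 thus remained far under its partners. The last of the 4 pairs, Col4a3 over Col4a4, went from 0.339 to 0.841 at low counts. Col5a1 over Col5a2 (0.466 and 0.605) and Col8a1 over Col8a2 (1.29 and 2.55) differed by less than 1.

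**Figure D4:**
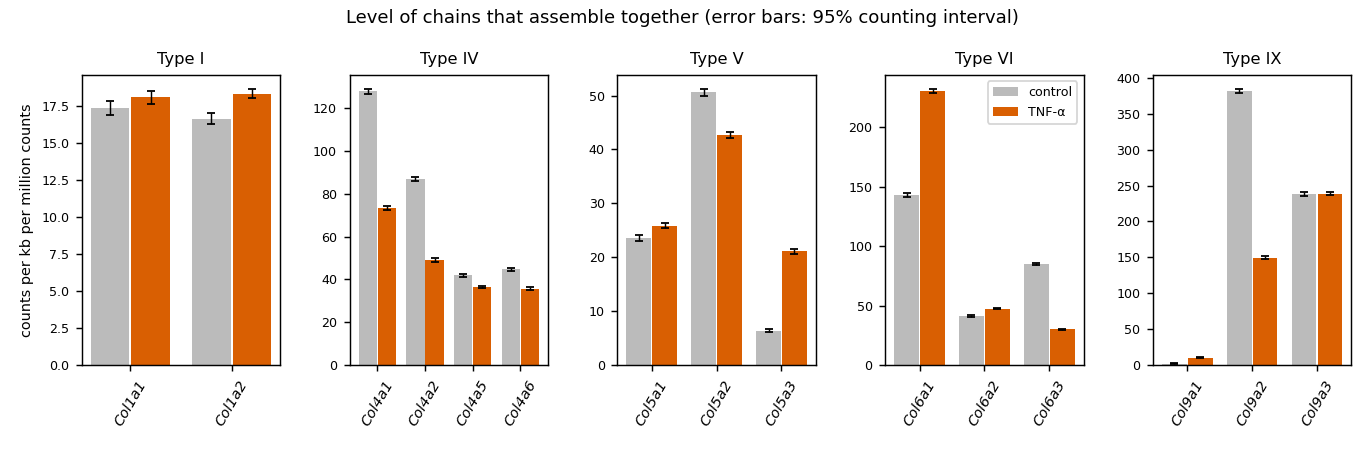
Level of the chains of types I, IV, V, VI and IX collagen in RPKM (linear axes from 0, each panel with its own scale), with gray bars for the control library, orange bars for the TNF-α library and error bars for the 95% counting interval. The Col4a1 and Col4a2 bars both stand lower with TNF-α, whereas Col6a1 stands higher and Col6a3 lower (ratio 1.68 in control, 7.63 with TNF-α).

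A level ratio depends on the exon length assigned to each gene. With the length of the transcript with the longest coding sequence in place of the summed exon length, Col1a1 over Col1a2 was 0.496 in control and 0.470 with TNF-α, Col6a1 over Col6a3 was 1.52 and 6.89, and Col6a1 over Col6a2 was 1.76 and 2.46. The changes between the libraries are not affected, because the length is the same in both.

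Collagen genes that lie near each other did not always move alike. Of 10 neighbouring pairs less than 1 Mb apart, Col9a1 and Col19a1 lie tail to tail with 9206 bases between them on chromosome 1 and had log2 ratios of 2.40 and -2.90, the second from 19 counts in all. The head-to-head pair Col4a4 and Col4a3, with 72 bases between them, had -1.35 and -0.07, from 197 and 92 counts in all. The pair Col4a6 and Col4a5, with 1309 bases between, had -0.31 and -0.19. On chromosome 10, Col6a2, Col6a1 and Col18a1 lie in that order and had 0.22, 0.70 and 0.62. Col9a3 and Col20a1 on chromosome 2 had 0.01 and -1.33, the second from 161 counts in all. On chromosome 9, Col6a6, Col6a5 and Col6a4 lie in that order and had -0.05, 1.41 and 0.89, Col6a5 from 12 counts in all. The well-counted pair Col4a1 and Col4a2 had -0.80 and -0.82, and Col3a1 and Col5a2 had -0.66 and -0.24.

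Genes that modify, fold and cross-link collagen are given beside the chains, with no test of a difference between lists. Above 0 were 14 of 20 genes of modification and folding (70.0%), 6 of 7 cross-linking genes (85.7%), 15 of 44 chains (34.1%) and 50.6% of all genes compared, of which 8.56% were past 2-fold higher and 6.62% lower. Of 20 genes of chain modification and folding, 3 were past 2-fold higher and 1 lower, with a median of 0.15. The 3 were all of the catalytic subunits of collagen prolyl 4-hydroxylase, the enzyme whose product hydroxyproline keeps the triple helix stable at body temperature. P4ha1 had 1538 counts in control and 5153 with TNF-α (log2 ratio 1.48), P4ha2 had 556 and 1907 (1.52), and P4ha3 had 134 and 488 (1.59). The shared partner subunit P4hb had 22767 and 32142 counts and a log2 ratio of 0.24. The gene past 2-fold lower was Colgalt2, a collagen galactosyltransferase, with 628 and 190 counts (log2 ratio -1.97). Plod2, a lysyl hydroxylase of the telopeptides, had a log2 ratio of 0.88 and Serpinh1, the collagen chaperone HSP47, one of 0.40.

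Of the 7 cross-linking genes, 3 lysyl oxidase family members were past 2-fold higher and 0 lower, with a median of 0.54. The shares of all genes compared were 8.56% higher and 6.62% lower. By summed level the cross-linking list went the other way, from 102 RPKM in control to 88.0 with TNF-α. The transglutaminase gene Tgm2 carried this, at 48.9 RPKM in control and 24.8 with TNF-α. Pxdn was level at 39.3 and 39.2, and the lysyl oxidase genes were all higher. Loxl2, which also cross-links type IV collagen, had 373 counts in control and 1509 with TNF-α (log2 ratio 1.75). Loxl1 had 284 and 845 (1.31) and Loxl4 had 97 and 300 (1.35). Tgm2, the tissue transglutaminase, had 10013 and 6119 counts and a log2 ratio of -0.97. Of 7 propeptide processing genes compared, 1 was past 2-fold higher, the procollagen N-proteinase Adamts14 (75 and 301 counts, log2 ratio 1.72), and the median was -0.46. Its relatives Adamts2 (737 and 514 counts, log2 ratio -0.78) and Adamts3 (798 and 583, -0.71) were below 0.

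Among 6 collagen-degrading proteases, 2 were past 2-fold higher and 1 lower, where 8.56% of all genes compared were higher and 6.62% lower. The collagenase Mmp13 had 22 counts in control and 724 with TNF-α (log2 ratio 4.67, interval 4.17 to 5.46), and the gelatinase Mmp9 had 97 and 804 (2.77). Mmp2, the other gelatinase, had 4066 and 1364 counts and a log2 ratio of -1.83. Mmp14, a membrane collagenase, was near 0 at 0.29, with 5604 and 8213 counts. None of 8 collagen receptors passed 2-fold (median -0.30), from the endocytic collagen receptor Mrc2 (1094 and 834 counts, log2 ratio -0.65) to the receptor tyrosine kinase Ddr2 (533 and 1273 counts, 0.99).

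The other proteins of the basement membrane zone are given beside the type IV chains. None of 14 other basement membrane genes passed 2-fold, with a median of -0.27 and a range from Nid2 (-0.76) to Nid1 (0.62), both nidogens that join laminin to type IV collagen. None of 8 hemidesmosome genes passed it either, with a median of 0.01. Of all genes compared, 8.56% were past it higher and 6.62% lower, and 2.65% and 2.02% of those with at least 1000 summed counts. In lists this small, having none past 2-fold is close to the shares of the well-counted genes. The lowest of the hemidesmosome genes was Plec, the keratin linker plectin, with 87089 and 79853 counts (log2 ratio -0.38). Col4a1 and Col4a2, at -0.80 and -0.82, lay near Nid2, which had just 41 and 28 counts (interval -1.56 to -0.08), and below the other members of both lists.

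**Figure D5:**
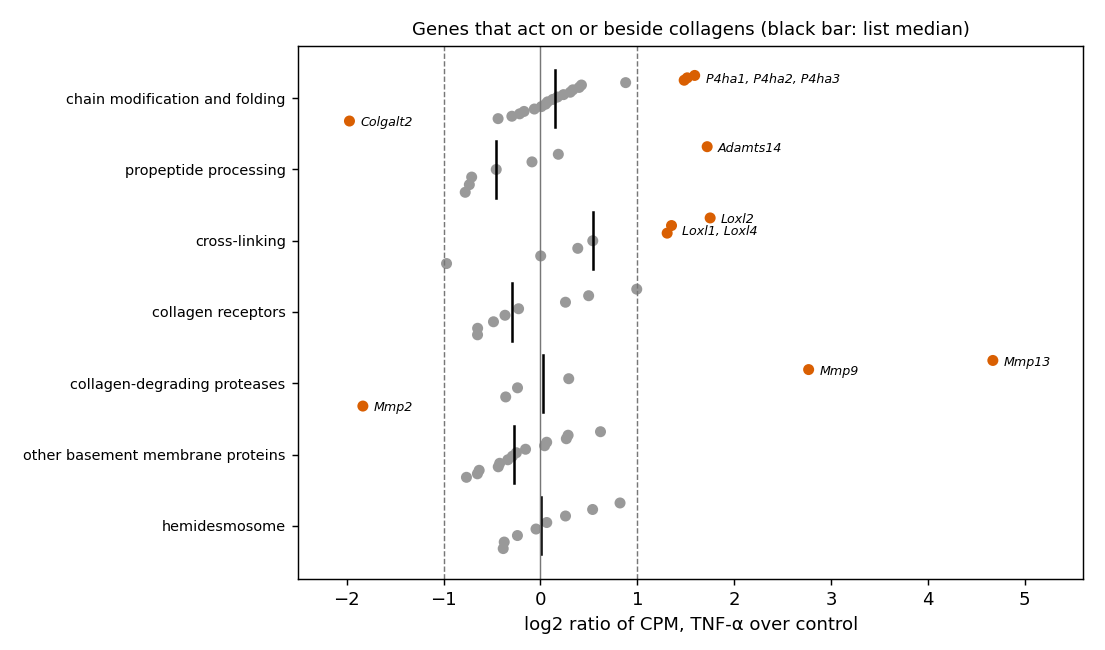
Log2 ratio of CPM, TNF-α over control, for genes that act on or beside collagens, 1 point per gene compared, with black bars for the list medians and dashed lines at 2-fold. Points past 2-fold are coloured and named: prolyl 4-hydroxylase and lysyl oxidase genes, Adamts14 and, furthest out, Mmp9 and Mmp13 on the right, Colgalt2 and Mmp2 on the left.

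Marker genes of other cells also differed between the libraries. As background, 8.56% of all genes compared were past 2-fold higher and 6.62% lower. Of 11 luminal markers, 10 were below 0 and 3 were past 2-fold lower: Pgr (7228 and 2970 counts, log2 ratio -1.54), Esr1 (2547 and 1094, -1.48) and Prlr (5767 and 3119, -1.15), receptors for progesterone, estrogen and prolactin. Of 8 basal markers, 1 was past 2-fold lower, the oxytocin receptor gene Oxtr (10762 and 5630, -1.19), with a median of -0.14. Of 11 fibroblast markers, 8 were above 0 and 4 past 2-fold higher: Dpt (20 and 622 counts, log2 ratio 4.58), Fbln1 (91 and 317, 1.52), Dcn (184 and 582, 1.39) and, from few reads, Twist2 (10 and 32, 1.27, interval 0.36 to 2.61). The fibroblast receptor gene Pdgfra had 2133 and 2519 counts and a log2 ratio of -0.02. The fibroblast collagens Col1a1 and Col1a2 were at 0.07 and 0.15, and Col3a1 at -0.66. Of 6 pericyte markers, 5 were below 0 and 2 past 2-fold lower, Abcc9 (106 and 52 counts, -1.25) and, from few reads, Kcnj8 (20 and 10, -1.10, interval -2.52 to -0.10). The part that a different mixture of cells had in the collagen differences was not tested.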

How the data were processed

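The deposited table, laid out like featureCounts output, held raw gene counts made by the authors for 1 control and 1 TNF-α library, beside each gene's exon coordinates, strand and summed exon length. Per the labels, total RNA was extracted and libraries were made with a SMARTER mRNA-seq kit, and the submitters' processing notes name GRCm38 (mm10). The aligner, counting tool, annotation and use of strand are not given in the sources used here. Of the 44 chains, 43 had the same coordinates in GENCODE M21, and 13 shared exon bases with another gene.

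Library sizes were scaled by TMM (edgeR 4.0.16, R 4.3.3). The log2 ratio of CPM used a prior count of 2 and was taken for the 20771 of 49492 genes that reached 10 summed counts. A quasi-likelihood fit needs replicates and was not run, and a gene was called past 2-fold by the ratio alone. Intervals are 95% exact (Clopper-Pearson) intervals of the TNF-α share of a gene's counts, and exact Poisson intervals for levels. They cover counting error only. Even counts were in excess (control: 2172 genes at 2 counts, 618 at 1). If each end of a fragment was counted, the intervals are too narrow, and halved counts were therefore an alternative. A ratio on 3 counts or fewer is given with its interval. Levels (RPKM) were scaled to the deposited totals, ratios to the TMM sizes.

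Members, classes and lists were chosen with earlier results of these data known. Every chain is named. Of each partner and marker list, members past 2-fold with at least 200 summed counts were named, or else the highest and lowest. A list member that this rule names is not reported here. Kcnj8, Twist2, Abcc9, Notch3, the endothelial and leukocyte markers named, and the list members inside 2-fold that stand beside called ones were chosen after their values were seen. Alternatives were total counts, DESeq2 1.42.0 size factors, upper quartile scaling, other filters, prior counts, folds and lengths, and TPM. Scripts were tested on simulated data. Python 3.11.15, pandas 2.3.3, scipy 1.17.1 and matplotlib 3.10.9 were used. Protein sequences were not used here.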

Additional observations from a re-analysis of the deposited data

How the results depend on the processing

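No paired analysis was possible because the study has a single library on each side, and for the same reason none could be left out. No chain ratio or class median past 2-fold in the main run changed sign under any alternative run. Ratios and medians inside 2-fold had no call to reverse. Among them, the multiplexin median changed sign, from -0.48 to 0.62 without chains that overlap another gene. Past 1.5-fold, 7 chains were higher and 17 lower, and the share of all genes past 1.5-fold was not taken, so these counts have no background. Requiring the counting interval to exclude no change left 2 higher (Col6a5 was lost) and 10 lower, again without a share over all genes. Chains past 2-fold were 2 higher and 9 lower at 1 CPM in a library, 2 and 7 at 100 summed counts, 2 and 10 with a prior count of 5 or halved counts, and 4 and 10 with the lowess correction, where Col24a1 (1.03) passed, and they stayed 3 and 10 under the other scalings, the prior count of 0.5 and no filter. With at least 1 CPM in a library or at least 100 summed counts, the class medians were -0.82 for FACITs, -0.80 for basement membrane and 0.22 for beaded filament chains, and with at least 100 counts the other class, then Col28a1 alone, was at -0.43. Halved counts gave 0.22 for beaded filament chains, without Col6a5. A lowess correction on gene length gave -0.88 for FACITs, -0.51 for basement membrane, 0.50 for beaded filament and -0.27 for anchoring fibril. With Col7a1, Col15a1 and Col18a1 added, the basement membrane median was -0.32. Without chains that overlap another gene it was -0.31 (3 chains), and it was -1.02 for FACITs, 0.62 for multiplexins (Col18a1 alone) and -0.066 for short-chain chains. The summed level ratio was 0.784 in TPM and 0.813 with the length of the transcript with the longest coding sequence, an alternative chosen after seeing the data. Of single chains, Col9a3 (-0.0018, upper quartile) and Col6a6 (0.0011, lowess) changed sign at values near 0. Over all genes, 1777 were higher and 1375 lower of 20771 compared. With no filter on low counts they were 2679 and 2996 of 27108. At 1 CPM they were 836 and 658 of 15605, and at 100 counts 721 and 543 of 15122. A prior count of 5 gave 1450 and 1176 of 20771 genes. Halved counts gave 1260 and 979 of 18921, and the lowess correction 1712 and 1425 of 20771. For chains with under 100 summed counts, such as Col6a5, Col19a1, Col13a1, Col4a3 and Col26a1, depth limits the size of the fold.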
